A study of Chlamydomonas reinhardtii with 12 samples.

Results

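The genes described here encode structural glycoproteins of the Chlamydomonas reinhardtii cell wall and zinc proteases of the matrix metalloprotease family. They were taken from the deposited expression table by symbol (PHC, HRP, GAS, VSP or MMP followed by a number), with 1 transcript per locus, the one with the highest mean level. This gave 48 of 17741 loci: 29 pherophorins and other hydroxyproline-rich wall proteins (17 PHC, 4 HRP, 3 GAS and 5 VSP genes) and 19 metalloproteases (MMP genes). The 29 are called pherophorins below for short, and both families are described separately. Symbols came from the table, so wall genes under other names are outside the 48.

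Poly(A) RNA was sequenced from liquid cultures of 2 strains, both in the CC-124 background. The strain amiCYG12 is 1 transformant line in which an artificial microRNA lowers the mRNA of CYG12, a soluble guanylate cyclase, and the other strain is the wild type. Each was sampled in 3 incubations: 6 h of darkness in sealed flasks, where the suspension turns anoxic (anoxia), 6 h of darkness in open beakers (dark aerated), and aerated growth in acetate medium under dim light, at a photon flux of 20 µmol per square metre and second (standard). With 2 biological duplicates per group there were 12 libraries. Since the standard cultures were harvested at the start and the dark cultures 6 h later, darkness and elapsed time cannot be told apart, and sealed flasks may differ from open beakers in gases other than oxygen.

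The wall of Chlamydomonas contains no cellulose and is built from layers of hydroxyproline-rich glycoproteins. Pherophorins, a family of volvocine algae first described in Volvox, pair a proline-rich rod with globular end domains. Metalloproteases of this alga include gametolysin, the enzyme that dissolves the wall of mating gametes. GAS genes are named for expression in gametes, and VSP genes encode wall proteins rich in serine and proline.

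Levels are given as FPKM, the fragment count scaled to transcript length and library size, so that levels of different genes can be set side by side. The table holds 1 pooled FPKM per group of 2 libraries. No value per library, read depth or replicate error was therefore at hand, and for each difference the error is the one behind the authors' test. "Rose", "fell", "higher" and "lower" are used of differences called significant in the authors' deposited table at a q-value of 0.05, and log2 ratios are of FPKM plus 1 unless the authors' table is named, which understates changes of weakly expressed genes. Among called loci the smallest deposited log2 change in absolute size was 0.86 to 0.89 depending on the comparison in the authors' deposited table. Loci with at least 1 FPKM in 1 or more groups were kept, 10915 in all, among them 26 pherophorins and 9 metalloproteases. A member that passed this filter only through a group in which it was high had to vary, so counts over the members that passed are descriptions.

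CYG12 itself was at 0.429 FPKM under anoxia, 0.353 FPKM in dark aerated cells and 0.158 FPKM under standard conditions in amiCYG12. In the wild type it was at 2.46, 3.23 and 0.132 FPKM in the same incubations. It was lower in amiCYG12 under anoxia (log2 ratio -1.27) and in dark aerated cells (-1.64), and barely detected in either strain in the light. Cultures were not labelled as gametes. Of 14 gamete and mating genes looked up, 8 were found. Their summed level was 18.9, 17.0 and 6.35 FPKM in amiCYG12 (anoxia, dark aerated, standard) and 25.4, 8.19 and 5.70 FPKM in the wild type. Most of each sum came from NSG13 and from RIR2A/NSG2, whose row carries both symbols, so the sums are not a level of the list as a whole. RIR2A/NSG2 alone was at 2.17, 10.7 and 4.44 FPKM in amiCYG12 and at 0.295, 3.09 and 4.71 FPKM in the wild type. FUS1, the fusion protein of mating type plus gametes, was listed at 0 in every group. CC-124 is a mating type minus strain, in which FUS1 is not expressed.

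Pherophorin transcripts were dominated by a few genes. PHC3 (chromosome 6:3784323-3787464, genome version 5.5) was at 971, 988 and 1458 FPKM in amiCYG12 (anoxia, dark aerated, standard) and at 586, 685 and 891 FPKM in the wild type. PHC2 (chromosome 14:1865969-1869014) was at 395, 505 and 658 FPKM in amiCYG12 and at 694, 780 and 862 FPKM in the wild type. Both encode pherophorins of the wall, and neither was called in any of the 9 comparisons. In every amiCYG12 group PHC3 stood well above PHC2, whereas in the wild type both had like levels.

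PHC15 (chromosome 9:1809519-1811468) followed with 289, 197 and 443 FPKM in amiCYG12 (anoxia, dark aerated, standard) and 380, 495 and 514 FPKM in the wild type. The 3 most abundant pherophorins of each group together held 62.8%, 80.4% and 76.4% of the family's summed FPKM in amiCYG12 under anoxia, dark aeration and standard conditions, and 56.3%, 72.3% and 75.2% in the wild type. Those 3 were PHC3, PHC2 and PHC15 in every group except the anoxic wild type, in which PHC18 took the place of PHC15. The family's sum was 2637, 2101 and 3348 FPKM in amiCYG12 and 2954, 2710 and 3014 FPKM in the wild type. Summed FPKM over all loci also differed between groups, from 513017 in dark aerated amiCYG12 cells to 668491 in standard wild-type cells. As a share of it the family held 0.510%, 0.410% and 0.636% in amiCYG12 and 0.466%, 0.453% and 0.451% in the wild type. Under anoxia amiCYG12 thus had the lower sum and the higher share. Both the lowest sum and the lowest share were in dark aerated amiCYG12 cells, in which 12 of the 26 measured pherophorins also had their lowest level.

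**Figure D1:**
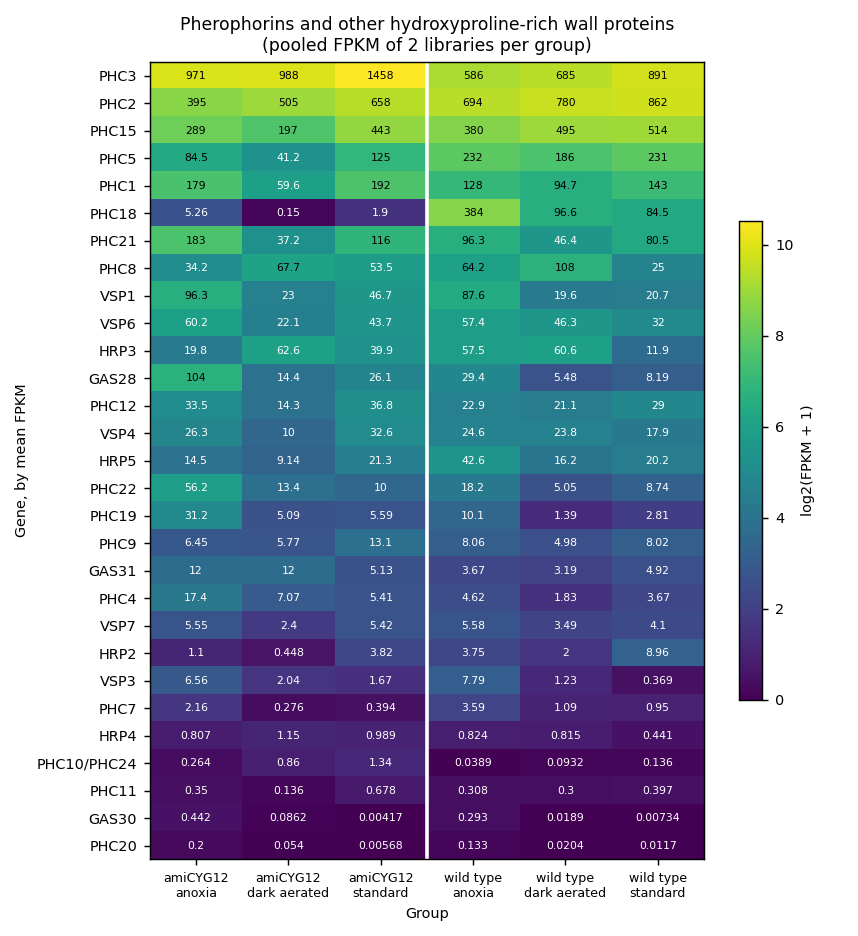
Levels of the 29 pherophorins and other hydroxyproline-rich wall proteins in the 6 groups. Rows are genes ordered by mean FPKM, columns are groups with amiCYG12 left of the white line and the wild type right of it, colour is log2(FPKM + 1), and each cell prints the pooled FPKM of 2 libraries. PHC3, PHC2 and PHC15 stay bright across the rows, and PHC18 is dark in all 3 amiCYG12 columns with 0.150 to 5.26 FPKM against 84.5 to 384 FPKM in the wild type.

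At the other end, 3 pherophorins stayed under 1 FPKM in every group: PHC11, GAS30 and PHC20. HRP4, a hydroxyproline-rich glycoprotein, passed narrowly at 0.807, 1.15 and 0.989 FPKM in amiCYG12 and 0.824, 0.815 and 0.441 FPKM in the wild type, and was called in no comparison. PHC10/PHC24, whose row carries both symbols, passed only through standard amiCYG12 cells at 1.34 FPKM. PHC3, PHC2 and HRP4 were the only members that passed the filter and were called in none of the 9 comparisons.

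Metalloprotease transcripts were far scarcer. Their summed level was 107, 41.2 and 77.8 FPKM in amiCYG12 (anoxia, dark aerated, standard) and 141, 68.2 and 54.3 FPKM in the wild type. MMP3 (chromosome 9:2105436-2110682) was at 29.0, 7.53 and 23.8 FPKM in amiCYG12 and at 53.9, 19.4 and 14.5 FPKM in the wild type. It was the most abundant metalloprotease under anoxia in both strains, and among the aerated groups its dark value was below its light value in amiCYG12 and above it in the wild type.

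MMP13 (chromosome 3:290354-295831) was at 12.7, 10.2 and 12.6 FPKM in amiCYG12 and at 33.5, 18.8 and 8.44 FPKM in the wild type. MMP19 (chromosome 3:3852659-3856163) was at 8.53, 3.69 and 7.04 FPKM in amiCYG12 and at 23.8, 12.2 and 15.9 FPKM in the wild type. MMP13 thus varied little within amiCYG12, and every amiCYG12 value of MMP19 lay under every wild-type value. Of the 19 metalloproteases, 10 stayed under 1 FPKM in all groups: MMP7, MMP32, MMP20, MMP4, MMP2, MMP14, MMP11, MMP5, MMP10 and MMP8.

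**Figure D2:**
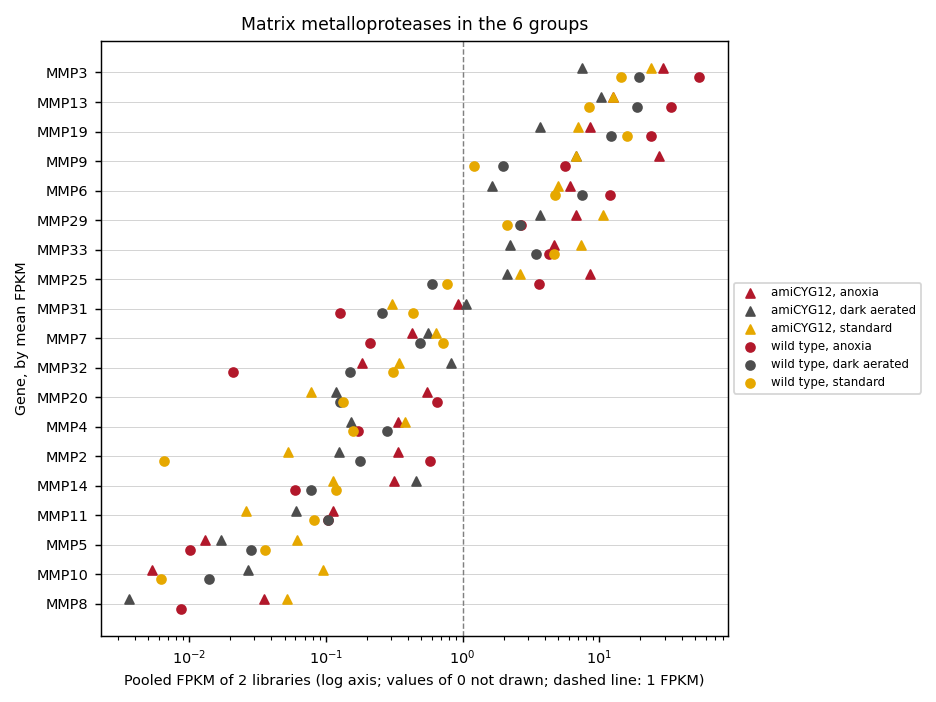
Levels of the 19 matrix metalloproteases. Each row is a gene, ordered by mean FPKM. The x axis is the pooled FPKM of 2 libraries on a log scale, triangles are amiCYG12, circles the wild type, and colours mark the incubation. Genes with all symbols left of the dashed line at 1 FPKM are the 10 that did not pass the filter, and MMP9 spreads from 1.22 FPKM in the wild type under standard conditions to 27.3 FPKM in anoxic amiCYG12 cells.

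Several members lie next to each other in the genome. PHC8 and PHC1 on chromosome 17 are separated by 1258 bases with no locus between them, and PHC7 follows PHC1 after 5831 bases with 2 loci between. HRP2 and HRP5 on chromosome 2 are separated by 674 bases, PHC19 and PHC22 on chromosome 17 by 14469 bases with 4 loci between them, and GAS28 and GAS30 on chromosome 11 by 14195 bases with 2 loci between them. Levels differed within some of these pairs: GAS28 reached 104 FPKM while GAS30 stayed at or below 0.442 FPKM, and in both strains PHC8 had its highest level in dark aerated cells, in which PHC1 had its lowest. No member overlaps another locus. The sources used here do not say how reads that match several similar pherophorins were assigned, so values of close paralogs are uncertain to that extent.

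The pherophorin PHC18 differed most between the strains. It had 5.26 FPKM under anoxia, 0.150 FPKM in dark aerated cells and 1.90 FPKM under standard conditions in amiCYG12, against 384, 96.6 and 84.5 FPKM in the wild type. Every amiCYG12 level was far under every wild-type level, and the gene that was among the 3 most abundant pherophorins in anoxic wild-type cells was close to undetected in dark aerated amiCYG12 cells. The log2 ratio of amiCYG12 over the wild type was -5.94 under anoxia, -6.41 in dark aerated cells and -4.88 under standard conditions. Without the added 1, the authors' deposited table gives -6.19, -9.33 and -5.47, each with a q-value of 0.000623, the smallest in that table.

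PHC18 lies on scaffold 24 at 118246-122121, a sequence not placed on a chromosome. Of the other loci on that scaffold, 10 passed the filter. Their log2 ratios of amiCYG12 over the wild type lay between -1.34 and 0.45 over the 3 incubations, and 2 of the 10 were called in at least 1 incubation. PHC18 rose with the loss of oxygen in both strains: the log2 ratio of anoxia over dark aerated was 2.44 in amiCYG12 and 1.98 in the wild type. Without the added 1, which weighs heavily on the amiCYG12 levels, the authors' deposited table gives 5.13 and 1.99. amiCYG12 is 1 transformant line, and an effect of the CYG12 knockdown cannot be told apart from a change particular to that line.

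Under anoxia 6 of 25 tested pherophorins were higher in amiCYG12 and 5 were lower, where 5.73% of all tested loci were called higher and 9.13% lower. In dark aerated cells 6 of 26 were higher and 7 lower (all loci: 8.2% and 10.8%), and under standard conditions 6 of 26 were higher and 3 lower (all loci: 5.49% and 5.04%). The median log2 ratio of the tested pherophorins was -0.01 under anoxia, -0.36 in dark aerated cells and 0.45 under standard conditions, and that of all tested loci was -0.04, -0.06 and -0.04. In each incubation the family therefore split into genes that were higher and genes that were lower in amiCYG12.

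GAS28, a hydroxyproline-rich glycoprotein that the table describes as stress-induced, was the pherophorin higher in amiCYG12 in all 3 incubations. It was at 104, 14.4 and 26.1 FPKM in amiCYG12 (anoxia, dark aerated, standard) and at 29.4, 5.48 and 8.19 FPKM in the wild type. The lead of amiCYG12 was of like size throughout, with log2 ratios of 1.78, 1.25 and 1.56 and q-values of 0.000623, 0.00203 and 0.000623 in the authors' deposited table. Its levels rank the incubations in the same order in both strains.

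PHC18 and HRP2 were lower in amiCYG12 in all 3 incubations. HRP2, a hydroxyproline-rich protein, was at 1.10, 0.448 and 3.82 FPKM in amiCYG12 (anoxia, dark aerated, standard) and at 3.75, 2.00 and 8.96 FPKM in the wild type, with log2 ratios of -1.18, -1.05 and -1.05. Each amiCYG12 value was below the wild-type value of the same incubation, and both strains had their highest level in the light. Its neighbour HRP5 was lower only under anoxia by the authors' call (log2 ratio -1.49), with 14.5, 9.14 and 21.3 FPKM in amiCYG12 and 42.6, 16.2 and 20.2 FPKM in the wild type.

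A group of weakly to moderately expressed pherophorins was higher in amiCYG12 in both dark incubations and was not called in the light. PHC4 was at 17.4, 7.07 and 5.41 FPKM in amiCYG12 (anoxia, dark aerated, standard) and at 4.62, 1.83 and 3.67 FPKM in the wild type, with log2 ratios of 1.71, 1.51 and 0.46. PHC22 was at 56.2, 13.4 and 10.0 FPKM in amiCYG12 and at 18.2, 5.05 and 8.74 FPKM in the wild type, with log2 ratios of 1.57, 1.25 and 0.18. In both genes the strains lay close together in the light and apart in the dark.

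PHC19, the near neighbour of PHC22, was at 31.2, 5.09 and 5.59 FPKM in amiCYG12 (anoxia, dark aerated, standard) and at 10.1, 1.39 and 2.81 FPKM in the wild type, with log2 ratios of 1.54, 1.35 and 0.79. Under standard conditions PHC19 narrowly missed a call, at a q-value of 0.0583 in the authors' deposited table. GAS31 was at 12.0, 12.0 and 5.13 FPKM in amiCYG12 and at 3.67, 3.19 and 4.92 FPKM in the wild type, with log2 ratios of 1.48, 1.64 and 0.05. PHC19 and PHC22 both had their highest level in anoxic amiCYG12 cells, the next in anoxic wild-type cells and the lowest in dark aerated wild-type cells, while GAS31 had like levels in dark aerated and anoxic cells of amiCYG12. PHC10/PHC24, at 0.264, 0.860 and 1.34 FPKM in amiCYG12 and 0.0389, 0.0932 and 0.136 FPKM in the wild type, was higher in amiCYG12 in dark aerated cells (log2 ratio 0.77) and under standard conditions (1.04).

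Of the more abundant pherophorins, PHC5 was lower in amiCYG12 in both dark incubations and PHC15 only in dark aerated cells. PHC5 (chromosome 5:3034210-3039095) was at 84.5, 41.2 and 125 FPKM in amiCYG12 (anoxia, dark aerated, standard) and at 232, 186 and 231 FPKM in the wild type. All 3 amiCYG12 levels lay under the wild-type range, and the log2 ratio was -1.44 under anoxia and -2.15 in dark aerated cells, both called, and -0.89 under standard conditions, not called at a q-value of 0.0522 in the authors' deposited table. PHC15 was lower in dark aerated cells (log2 ratio -1.33), as were VSP4 (-1.17), VSP6 (-1.03) and PHC7 (-0.71). Of these, PHC7 was also lower under standard conditions (-0.48), on levels of 2.16, 0.276 and 0.394 FPKM in amiCYG12 (anoxia, dark aerated, standard) and 3.59, 1.09 and 0.95 FPKM in the wild type.

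HRP3, a hydroxyproline-rich glycoprotein, changed sides between incubations. It was at 19.8, 62.6 and 39.9 FPKM in amiCYG12 (anoxia, dark aerated, standard) and at 57.5, 60.6 and 11.9 FPKM in the wild type. It was lower in amiCYG12 under anoxia (log2 ratio -1.49) and higher under standard conditions (1.67), and the dark aerated levels lay side by side (0.05, q-value 0.945 in the authors' deposited table). Under standard conditions VSP1 (log2 ratio 1.13), PHC8 (1.07) and VSP3 (0.97) were also higher in amiCYG12, and under anoxia PHC21 was (0.92).

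Of the metalloproteases, 4 of 9 tested were higher in amiCYG12 and 3 lower under anoxia, 3 of 9 were higher and 3 lower in dark aerated cells, and 3 of 8 were higher and 1 lower under standard conditions. Of all tested loci 5.73% were called higher and 9.13% lower under anoxia, 8.2% and 10.8% in dark aerated cells, and 5.49% and 5.04% under standard conditions. The median log2 ratio of the metalloproteases was 0.09, -0.48 and 0.62, and that of all tested loci -0.04, -0.06 and -0.04. MMP9 and MMP25 were higher in all 3 incubations and MMP19 was lower in all 3. As among the pherophorins, members moved to both sides.

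MMP9 (chromosome 16:1401332-1408423), described in the table as a metalloproteinase of the VMP family, a name first used for Volvox enzymes, was at 27.3, 6.72 and 6.71 FPKM in amiCYG12 (anoxia, dark aerated, standard) and at 5.61, 1.99 and 1.22 FPKM in the wild type. Every amiCYG12 level exceeded the highest wild-type level, and the log2 ratios were 2.1, 1.37 and 1.8, each at a q-value of 0.000623 in the authors' deposited table. MMP25, also of the metalloprotease family, was at 8.53, 2.12 and 2.63 FPKM in amiCYG12 and at 3.60, 0.596 and 0.765 FPKM in the wild type, with log2 ratios of 1.05, 0.97 and 1.04. For MMP19, with the levels given above, the log2 ratios were -1.38, -1.49 and -1.07.

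The other metalloprotease calls did not extend over all 3 incubations. MMP29 was at 6.71, 3.65 and 10.6 FPKM in amiCYG12 (anoxia, dark aerated, standard) and at 2.67, 2.61 and 2.11 FPKM in the wild type, higher under anoxia (log2 ratio 1.07) and under standard conditions (1.89). MMP6 was at 6.13, 1.65 and 4.95 FPKM in amiCYG12 and at 11.9, 7.47 and 4.74 FPKM in the wild type, lower under anoxia (-0.86) and in dark aerated cells (-1.67). In the light the strains had like levels of MMP6 and unlike levels of MMP29, and in the dark with air the reverse held.

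MMP3 was lower in amiCYG12 in dark aerated cells (log2 ratio -1.26). Under anoxia MMP3 narrowly missed a call, with a log2 change of -0.89 and a q-value of 0.0508 in the authors' deposited table. MMP13 was lower under anoxia (-1.33). MMP31, at 0.931, 1.06 and 0.304 FPKM in amiCYG12 and 0.128, 0.256 and 0.435 FPKM in the wild type, was higher under anoxia (0.78) and in dark aerated cells (0.71), on levels at or below 1.06 FPKM. It passed the filter only through dark aerated amiCYG12 cells, so the filter favoured its being higher there. MMP33, at 4.66, 2.21 and 7.35 FPKM in amiCYG12 and 4.32, 3.47 and 4.68 FPKM in the wild type, was the measured metalloprotease with no strain call in any incubation.

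**Figure D3:**
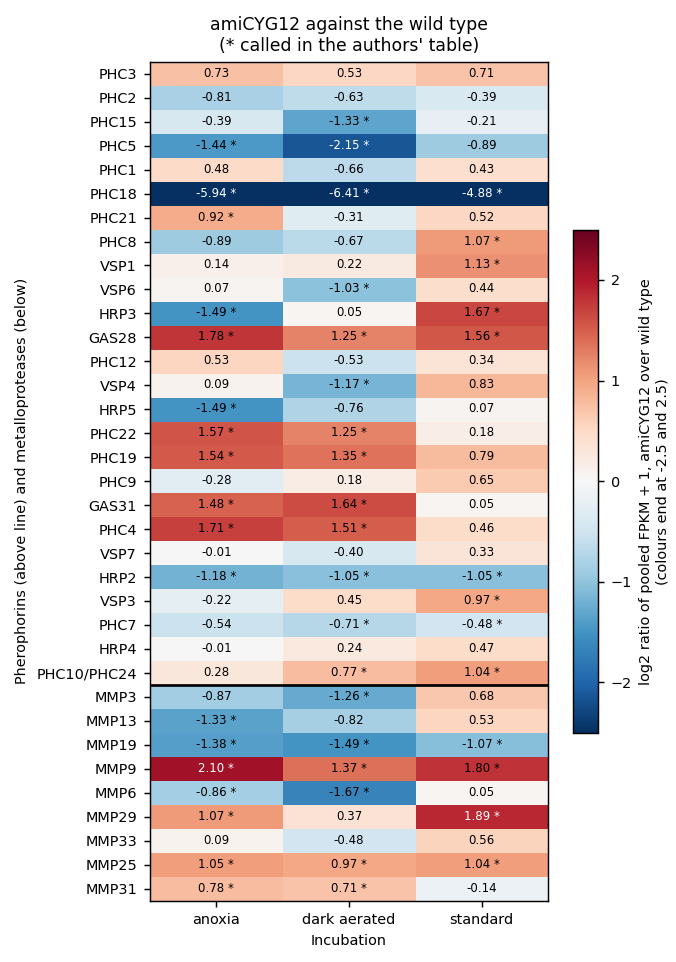
Log2 ratio of pooled FPKM + 1, amiCYG12 over the wild type, for the 26 pherophorins (above the line) and 9 metalloproteases (below it) that reached 1 FPKM, in columns for anoxia, dark aerated and standard incubations. Red is higher and blue lower in amiCYG12, each cell prints the value, and an asterisk marks a call in the authors' deposited table. PHC18 is blue throughout with -4.88 to -6.41, GAS28, MMP9 and MMP25 are red throughout, and HRP3 runs from -1.49 under anoxia to 1.67 under standard conditions.

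The loss of oxygen was measured by anoxia against dark aerated cells, which share darkness and duration. In amiCYG12 16 of 26 tested pherophorins rose and 3 fell, where 12.9% of all tested loci rose and 12.9% fell. In the wild type 10 of 25 rose and none fell (all loci: 6.88% and 7.96%), although PHC8 had a negative change at an unadjusted p-value under 0.05 in the authors' deposited table. The median log2 ratio of the tested pherophorins was 1.10 in amiCYG12 and 0.55 in the wild type, and that of all tested loci -0.02 and -0.01. The rises were found among PHC genes and the others: 9 of 15 tested PHC genes and 7 of 11 GAS, HRP and VSP genes rose in amiCYG12, and 6 of 14 and 4 of 11 in the wild type.

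The genes that rose in both strains were GAS28, PHC18, PHC19, PHC21, PHC22, PHC4, PHC7, VSP1 and VSP3. These 9 were 9 of the 16 that rose in amiCYG12 and 9 of the 10 that rose in the wild type. The overlap of calls between strains over all loci was not counted. Whether this overlap, or those given below, is particular to the family therefore cannot be said. For GAS28 the log2 ratio was 2.76 in amiCYG12 and 2.23 in the wild type, from the levels given above. For PHC19 it was 2.40 and 2.21, for PHC22 1.99 and 1.67, for PHC4 1.19 and 0.99, and for PHC7 1.31 and 1.14.

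VSP1, a serine- and proline-rich wall protein (chromosome 11:1292715-1295811), was at 96.3, 23.0 and 46.7 FPKM in amiCYG12 (anoxia, dark aerated, standard) and at 87.6, 19.6 and 20.7 FPKM in the wild type. The anoxic levels stood apart from the aerated ones in both strains, with log2 ratios of anoxia over dark aerated of 2.02 in amiCYG12 and 2.11 in the wild type. VSP3, described in the table as an extracellular matrix protein, was at 6.56, 2.04 and 1.67 FPKM in amiCYG12 and at 7.79, 1.23 and 0.369 FPKM in the wild type, with log2 ratios of 1.31 and 1.98. PHC21 was at 183, 37.2 and 116 FPKM in amiCYG12 and at 96.3, 46.4 and 80.5 FPKM in the wild type, with log2 ratios of 2.27 and 1.04. In amiCYG12 PHC21 had its lowest level in the dark aerated cells, well below the light, so its anoxic level was less far from the standard level than from the dark aerated one.

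HRP5 rose in the wild type (log2 ratio 1.34) and had a log2 ratio of 0.61 in amiCYG12 that was not called. PHC1, PHC5, PHC12, VSP4, VSP6, VSP7 and HRP2 rose in amiCYG12, with log2 ratios of 1.57, 1.02, 1.18, 1.31, 1.40, 0.95 and 0.54, and were not called in the wild type. PHC1, for example, was at 179, 59.6 and 192 FPKM in amiCYG12 (anoxia, dark aerated, standard) and at 128, 94.7 and 143 FPKM in the wild type. In amiCYG12 the anoxic and standard levels of PHC1 lay close together and the dark aerated level stood below both. The 3 genes that fell in amiCYG12 were HRP3 (-1.61), PHC8 (-0.96) and PHC10/PHC24 (-0.56).

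Of the metalloproteases that reached 1 FPKM, 6 of 9 tested rose with the loss of oxygen in amiCYG12 (all loci: 12.9% rose and 12.9% fell) and 4 of 8 in the wild type (all loci: 6.88% and 7.96%), with medians of 1.02 and 0.85. None of them fell, also at an unadjusted p-value under 0.05 in the authors' deposited table. Below 1 FPKM, that table also calls MMP32 lower in amiCYG12, at 0.185 FPKM under anoxia and 0.820 FPKM in dark aerated cells, and MMP20 higher in both strains, at 0.554 and 0.118 FPKM in amiCYG12 and 0.652 and 0.128 FPKM in the wild type. MMP3, MMP9, MMP19 and MMP25 rose in both strains, 4 of the 6 in amiCYG12 and 4 of the 4 in the wild type. The log2 ratios were 1.82 in amiCYG12 and 1.43 in the wild type for MMP3, 1.87 and 1.15 for MMP9, 1.02 and 0.91 for MMP19, and 1.61 and 1.53 for MMP25. MMP6 (1.43) and MMP33 (0.82) rose in amiCYG12 alone by the authors' calls.

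**Figure D4:**
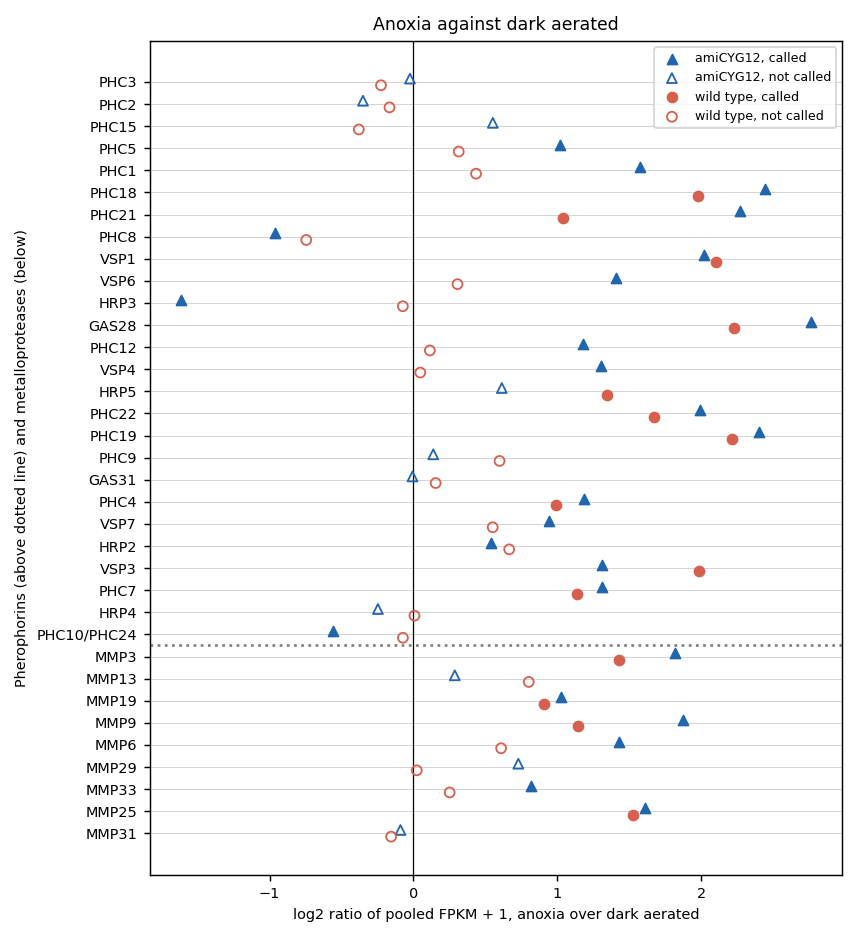
Log2 ratio of pooled FPKM + 1, anoxia over dark aerated, for the 26 pherophorins (above the dotted line) and 9 metalloproteases (below it) that reached 1 FPKM. Triangles are amiCYG12 and circles the wild type, filled where the authors' deposited table calls the difference. Filled symbols lie mostly right of 0, up to 2.76 for GAS28 in amiCYG12, and HRP3 in amiCYG12 lies farthest left at -1.61.

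A gene called in 1 strain and not in the other is not thereby shown to respond differently. A direct test took the authors' deposited log2 change in amiCYG12 minus that in the wild type and set it over a standard error derived from the deposited p-values, two-sided against a normal distribution, with q-values by Benjamini-Hochberg over all loci. Like the authors' calls, these q-values rest on 2 libraries per group. For the loss of oxygen 0.703% of all tested loci passed at 0.05 and none of the 34 tested members did, though 8 of the 34 had an unadjusted p under 0.05. The closest was HRP3, with a difference of -1.59 ± 0.52 (standard error, q-value 0.118). The difference for PHC18 was 3.14 ± 1.36 (q-value 0.301), on amiCYG12 levels of at most 5.26 FPKM.

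Of the gamete genes looked up, NSG13, a gene named for nitrogen-starved gametogenesis, rose with the loss of oxygen in both strains. It was at 12.8, 4.88 and 1.06 FPKM in amiCYG12 (anoxia, dark aerated, standard) and at 20.2, 4.37 and 0.437 FPKM in the wild type. RIR2A/NSG2, of the same list, fell in both strains, with log2 ratios of -1.89 in amiCYG12 and -1.66 in the wild type and levels of 2.17, 10.7 and 4.44 FPKM in amiCYG12 and 0.295, 3.09 and 4.71 FPKM in the wild type. RIR2A/NSG2 was the only gene of the list called lower with the loss of oxygen. NSG6 was at 3.25, 0.765 and 0.394 FPKM in amiCYG12 (anoxia, dark aerated, standard) and at 3.63, 0.231 and 0.137 FPKM in the wild type. Its changes with the loss of oxygen were positive in both strains and not called. Against standard cells NSG6 rose under anoxia in amiCYG12 (log2 ratio 1.61). HAP2, needed for gamete fusion, rose in the wild type (log2 ratio 0.74) but stayed at or below 0.889 FPKM in all groups, and SAG1, the agglutinin of mating type plus, at or below 0.120 FPKM. The part of a gamete programme in the levels of the GAS genes was not tested.

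Dark aerated against standard cells shows 6 h of darkness with air. The dark aerated group also served for the loss of oxygen, so the counts of both comparisons are not independent. In amiCYG12 13 of 25 tested pherophorins fell and 1 rose, where 9.78% of all tested loci fell and 4.13% rose. In the wild type 2 of 25 fell and 3 rose (all loci: 6.75% and 4.28%). The median log2 ratio of the tested pherophorins was -0.92 in amiCYG12 and -0.30 in the wild type, and that of all tested loci -0.07 and -0.05. With the groups rescaled to a common median ratio, the family's median in amiCYG12 was -0.84.

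The genes that fell in amiCYG12 were spread over the family's range of abundance. They were HRP2 (log2 ratio -1.73), PHC1 (-1.67), PHC21 (-1.62), VSP4 (-1.61), PHC5 (-1.57), PHC18 (-1.34), PHC12 (-1.31), PHC15 (-1.17), HRP5 (-1.13), PHC9 (-1.06), VSP1 (-0.99), VSP6 (-0.95) and VSP7 (-0.92). HRP2 was the gene that fell in both strains; its log2 ratio of FPKM plus 1 was -1.73 in each, and the authors' deposited table, without the added 1, gives -3.09 in amiCYG12 and -2.17 in the wild type. VSP4, a hydroxyproline-rich glycoprotein, was at 26.3, 10.0 and 32.6 FPKM in amiCYG12 (anoxia, dark aerated, standard) and at 24.6, 23.8 and 17.9 FPKM in the wild type, so that the dark aerated amiCYG12 value stood below the other 5. GAS31 rose in amiCYG12 (1.09), from the levels given above.

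In the wild type HRP3 (log2 ratio 2.26), PHC8 (2.07) and VSP3 (0.70) rose and PHC4 fell (-0.72). PHC8 (chromosome 17:2685191-2692102) was at 34.2, 67.7 and 53.5 FPKM in amiCYG12 (anoxia, dark aerated, standard) and at 64.2, 108 and 25.0 FPKM in the wild type. Its level was highest in the dark with air in both strains, but the step up from the light was much larger in the wild type. HRP3, too, was highest in dark aerated cells of both strains, and its lowest level was that in standard wild-type cells.

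Among metalloproteases 4 of 9 tested fell and 1 rose in amiCYG12, and none of 8 fell (none at an unadjusted p-value under 0.05 in the authors' deposited table) and 1 rose in the wild type, with medians of -0.78 and 0.30 (all loci: 9.78% fell and 4.13% rose in amiCYG12, 6.75% and 4.28% in the wild type). MMP3 (log2 ratio -1.54), MMP33 (-1.38), MMP29 (-1.31) and MMP6 (-1.17) fell in amiCYG12, and MMP31 rose (0.66). MMP31 passed the filter only through dark aerated amiCYG12 cells, so the filter favoured this rise. With a minimum of 5 FPKM, 4 metalloproteases fell and 0 rose. In the wild type MMP13 rose (1.07).

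**Figure D5:**
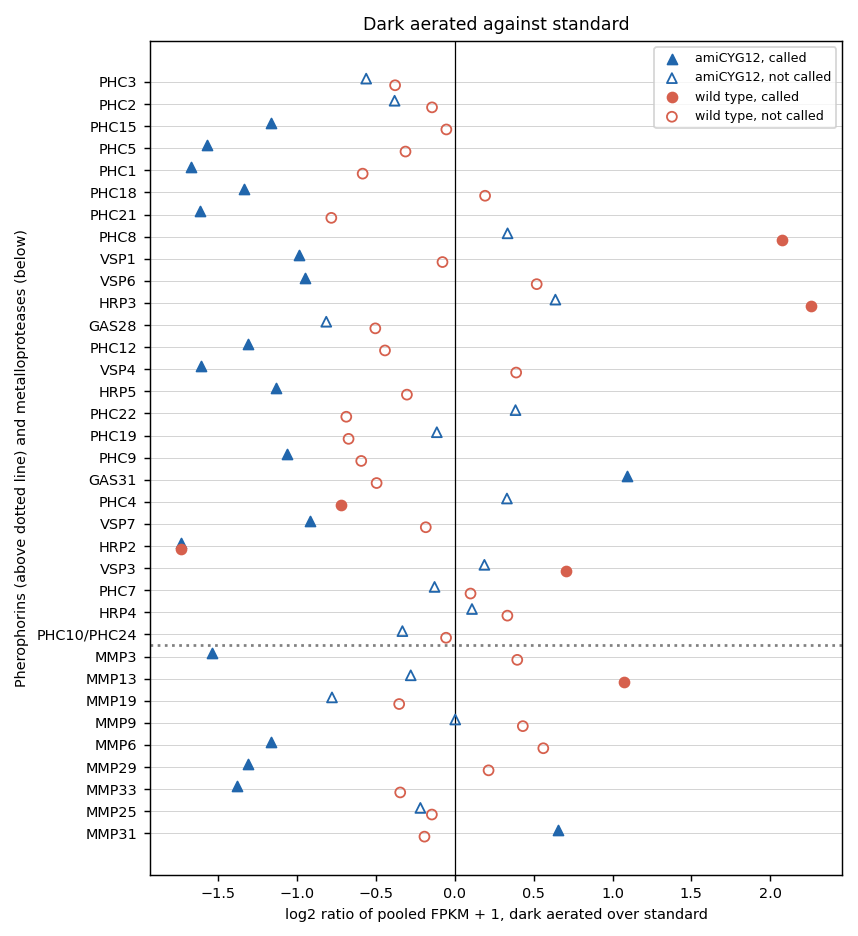
Log2 ratio of pooled FPKM + 1, dark aerated over standard, for the same 26 pherophorins (above the dotted line) and 9 metalloproteases (below it). Triangles are amiCYG12 and circles the wild type, filled where the authors' deposited table calls the difference. Most filled triangles lie left of 0, down to -1.73 for HRP2, where the wild-type circle of that gene lies too. Filled wild-type circles farthest right are HRP3 at 2.26 and PHC8 at 2.07.

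The strain difference of the dark response was called for 7 of 34 tested members, where 2.15% of all tested loci passed, and 16 of the 34 had an unadjusted p under 0.05. The difference was negative, that is toward a lower dark level relative to the light in amiCYG12, in 29 of the 34. Over all loci it was negative in 5450 of 10539 tested. The median was -0.92 over both families and -0.03 over all tested loci. All members rest on the same pooled groups, so the count of negative differences is a description. The called pherophorins were PHC18 (-3.86 ± 0.97, standard error, q-value 0.0108), VSP4 (-2.11 ± 0.51, q-value 0.00787), PHC8 (-1.78 ± 0.51, q-value 0.0351) and, in the opposite direction, GAS31 (1.85 ± 0.52, q-value 0.0264). The called metalloproteases were MMP6 (-2.24 ± 0.53, q-value 0.00594), MMP3 (-2.08 ± 0.51, q-value 0.00799) and MMP29 (-1.84 ± 0.53, q-value 0.0358). With the larger of the available error estimates 2 of the 7 stayed below 0.05, VSP4 (q-value 0.0328) and MMP3 (q-value 0.0330).

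Anoxia against standard cells combines darkness, time and the loss of oxygen. It shares its groups with the 2 preceding comparisons, so it gives no independent count. Those 2 share the dark aerated group, with opposite sign, so their counts are not independent of each other either. In amiCYG12 PHC1, PHC5, PHC12, PHC21, VSP4, VSP6 and VSP7 fell in the dark with air and rose with the loss of oxygen. None of these was called for anoxia against standard in that strain. A low value in the shared dark aerated group alone would give both calls. The share of all loci with this pattern was not counted, so whether it is particular to the family cannot be said. In amiCYG12 9 of 26 tested pherophorins rose and 4 fell (all loci: 9.27% and 15.7%), and in the wild type 10 of 25 rose and 1 fell (all loci: 11.5% and 15.9%). The medians were -0.12 and 0.37. Genes that rose in both strains were GAS28, PHC18, PHC19, PHC22, PHC7, VSP1 and VSP3, 7 of the 9 in amiCYG12 and 7 of the 10 in the wild type.

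The largest called rises were PHC22 (log2 ratio 2.38), PHC19 (2.29) and GAS28 (1.95) in amiCYG12, and VSP3 (2.68), HRP3 (2.18) and PHC18 (2.17) in the wild type. In amiCYG12 PHC4 (1.52), GAS31 (1.08) and the members shared with the wild type completed the list, and in the wild type PHC8 (1.33) and HRP5 (1.04) did. HRP2 fell in both strains, with log2 ratios of -1.20 in amiCYG12 and -1.07 in the wild type. HRP3 fell in amiCYG12 (-0.98) and rose in the wild type, and PHC9 (-0.92) and PHC10/PHC24 (-0.89) fell in amiCYG12. PHC9 was at 6.45, 5.77 and 13.1 FPKM in amiCYG12 (anoxia, dark aerated, standard) and at 8.06, 4.98 and 8.02 FPKM in the wild type, so that standard amiCYG12 cells stood above the other 5 groups.

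Among metalloproteases 3 of 9 tested rose in amiCYG12 and 5 of 8 in the wild type, and none of these fell, also at an unadjusted p-value under 0.05 in the authors' deposited table (all loci: 9.27% rose and 15.7% fell in amiCYG12, 11.5% and 15.9% in the wild type). MMP9 rose in both strains, with log2 ratios of 1.87 in amiCYG12 and 1.58 in the wild type, and MMP25 did with 1.39 and 1.38. MMP31 (0.57) rose in amiCYG12 as well, and MMP13 (1.87), MMP3 (1.82) and MMP6 (1.17) in the wild type. The median over the tested metalloproteases was 0.26 in amiCYG12 and 1.28 in the wild type. MMP13 had nearly the same level in anoxic and standard amiCYG12 cells (log2 ratio 0.01), while its anoxic wild-type level was above all other groups.

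For comparison, 41 other genes related to the wall were looked up by symbol or description, chiefly exostosin-like glycosyltransferases (ELG). Of these 33 reached 1 FPKM. With the loss of oxygen 3 of 33 tested rose and 2 fell in amiCYG12 (all loci: 12.9% and 12.9%). In the wild type 5 rose and 1 fell (all loci: 6.88% and 7.96%). The medians were 0.15 and 0.13, and those of all tested loci -0.02 and -0.01. In the dark with air none rose and 1 of 33 fell in amiCYG12 (all loci: 4.13% and 9.78%). In the wild type 1 of 32 rose and 1 fell (all loci: 4.28% and 6.75%). The ELG genes stayed at or below 5.92 FPKM in every group. At such levels the added 1 shrinks log2 ratios, so these medians may be understated more than those of the pherophorins. Calls may also be harder to reach at such levels, so these counts are not like for like with those of the pherophorins.

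The change in the dark in amiCYG12 was in ISG-C2/ISG2, a gene next to the hydroxyproline-rich wall gene ISG-C4 on chromosome 16. It was at 114, 44.5 and 102 FPKM in amiCYG12 (anoxia, dark aerated, standard) and at 54.2, 22.5 and 38.4 FPKM in the wild type. Like PHC1 and PHC21 it was low in dark aerated amiCYG12 cells relative to both other incubations of that strain, with log2 ratios of -1.18 for dark aerated over standard and 1.34 for anoxia over dark aerated. It was higher in amiCYG12 than in the wild type in all 3 incubations, with log2 ratios of 1.06, 0.95 and 1.39. ISG-C4/ISG4/FAP137, at 17.9, 54.9 and 85.3 FPKM in amiCYG12 and 64.3, 87.2 and 85.7 FPKM in the wild type, fell with the loss of oxygen in amiCYG12 (-1.57) and was lower there than in the wild type under anoxia (-1.79).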

How the data were processed

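The 12 libraries form 6 groups of 2 by the labels. Per the labels' protocols RNA was selected for poly(A) and libraries were stranded; the submitters' processing notes name CASAVA 1.8.2, Bowtie2 2.0.5, TopHat2 2.0.6, SAMtools 1.2 and Cufflinks 2.1.1. The authors deposited 1 table of 19505 transcripts (per the file headers on genome version 5.5 of Phytozome release 11) with 1 pooled FPKM per group. For each of 9 comparisons it holds the authors' log2 fold change, p-value and q-value, as deposited. Depth per library is unknown. Calls are the authors'.

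Coordinates count from 1. All log2 ratios computed here use a pseudocount of 1. A standard error was derived from the deposited p-value of each locus, dividing the absolute log2 change by the normal quantile. None was derived above a p-value of 0.95, and at the smallest p-value, 5e-05, the error is an upper bound. Its median over members was 0.372. The smaller of 2 estimates served for the difference of responses, which favours calls. The step was tested on simulated data in which all comparisons of a locus had the same error. That simulation therefore cannot show the effect of taking the smaller estimate. The derived errors are not replicate errors.

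Members, lists and tests were chosen with earlier results of these data known. Every member is accounted for; levels in all groups are printed for the 3 largest called changes per family, comparison and direction and for the 3 most abundant members of each family, and for others chosen after their values were seen. No member sequence was used here. Computations used Python 3.11.15, pandas 2.3.3, numpy 2.4.6, scipy 1.17.1 and matplotlib 3.10.9.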

Additional observations from a re-analysis of the deposited data

Results flagged for a closer look

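For 7 genes the response to 6 h of darkness with air was called different between amiCYG12 and the wild type by the test of the difference itself. Those calls use the smaller error estimate, and with the larger only VSP4 and MMP3 stayed called. The values are differences of the log2 changes in the authors' deposited table, amiCYG12 minus wild type, two-sided and adjusted by Benjamini-Hochberg over all loci.

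MMP6 (-2.24), VSP4 (-2.11) and MMP3 (-2.08) fell in amiCYG12 and had a positive, uncalled change in the wild type, where the deposited log2 changes were 0.66, 0.41 and 0.42. MMP29 (-1.84) did likewise, with a wild-type change of 0.31. For PHC8 (-1.78) the deposited change was 0.34 in amiCYG12, not called, and 2.12 in the wild type. GAS31 (1.85) rose in amiCYG12, with a change of 1.23, and was not called in the wild type at -0.62. PHC18 (-3.86) rests on amiCYG12 levels of 0.150 and 1.90 FPKM, and its error with the larger estimate leaves a q-value of 0.624. The larger estimate gives q-values of 0.0587 for MMP6, 0.0982 for GAS31, 0.157 for PHC8 and 0.176 for MMP29, all uncalled.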

How the results depend on the processing

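Counts of called members stayed within 1.5 times under a minimum of 5 FPKM, under no minimum, and when calls were recomputed from the recovered errors with adjustment within each comparison, with or without rescaling of the groups to a common median ratio, apart from 2 results. In the wild type, dark aerated against standard, the 5 called pherophorins became 3 with recomputed calls, with and without rescaling, since VSP3 (q-value 0.0680 and 0.0788) and PHC4 (q-value 0.116 and 0.0794) were lost. For the dark response the 7 members whose strain difference was called became 2 with the larger error. Elsewhere recomputing without rescaling lost VSP6 and VSP1 in amiCYG12, dark aerated against standard, PHC7 between strains under standard conditions, and PHC21 and MMP6 between strains under anoxia. With rescaling PHC15 was lost too in amiCYG12, dark aerated against standard, and VSP6 was gained in the wild type, anoxia against standard.

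The median of the pherophorins between strains under anoxia, -0.01, turned to 0.0078 with rescaling. Of the other medians, 6 moved by 0.1 or more with a pseudocount of 0.1 and 1 with rescaling, and all kept their sign, as did all 146 called log2 ratios of single members under both. Summing the transcripts of a locus moved no median by 0.1. Rescaling shifted the log2 ratios of a comparison by at most 0.11. No paired analysis was possible because the table holds 1 pooled value per group. For the same reason no library could be left out. The spread between duplicates cannot be seen, and MMP31, HRP4 and PHC10/PHC24 have levels near or below 1 FPKM at unknown depth. Without a minimum, PHC11, MMP20 and MMP32 add calls.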

Other observations

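GLE1, the gene of gametolysin, carries no MMP number and is therefore outside the 48 genes; it was looked up after the other values were seen. It was at 48.0, 31.1 and 65.9 FPKM in amiCYG12 (anoxia, dark aerated, standard) and at 95.1, 65.4 and 59.4 FPKM in the wild type, above every numbered metalloprotease in each group. In the authors' deposited table it was lower in amiCYG12 under anoxia and in dark aerated cells, and it fell in amiCYG12 with darkness. The log2 ratios of FPKM plus 1 were -0.97, -1.05 and -1.06. It lies on chromosome 17 at 2760552-2766223, on the far side of MMP2 (2751732-2755483) from PHC8, PHC1 and PHC7.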
